A study of Mus musculus with 6 samples.

Results

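The 9 genes described here write, copy and remove DNA methylation or make a cofactor for its removal, and they were *Dnmt1*, *Uhrf1*, *Dnmt3a*, *Dnmt3b*, *Tet1*, *Tet2*, *Tet3*, *Idh1* and *Idh2*. They were chosen by name for these roles, by a rule that uses no measured value, from the 54532 genes of the deposited table. The table measured RNA of mouse acute myeloid leukemia (AML) cells as read counts per gene, with 3 libraries in each of 2 groups. *WT Phf6,RE9a* cells carried a floxed *Phf6* allele that was left intact in male mice (*Phf6* fl/y). *VC Phf6,RE9a* cells carried the same floxed allele and Vav1-Cre, a recombinase driven by a promoter active across blood cells, which deletes *Phf6*. *Phf6* encodes a PHD finger protein that binds chromatin. Cells of both groups also carried RUNX1-ETO9a (RE9a), a truncated form of the AML1-ETO fusion, delivered with GFP by a retrovirus into lineage-negative fetal liver cells. The cells were passed through recipient mice, and GFP+ bone marrow cells were sorted, so that all values concern leukemias driven by 1 oncogene. Whether the 3 libraries of each group came from different leukemias is not stated in the labels, so p-values measure only the spread between these libraries. In bulk RNA, fewer cells of a type and less RNA per cell cannot be told apart. DNA methylation itself was not measured. The groups are called WT and VC from here on, with the replicate numbers of the labels (1, 2 and 3 in WT, and 11, 12 and 13 in VC).

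The total count per library ran from 15675358 to 16817994. *Phf6* fell from 64.3 ± 7.15 to 20.3 ± 2.37 CPM, counts scaled to a common library size (SD, n = 3), with no overlap between the groups. All 7 myeloid progenitor markers were read in both groups, but they split in direction, with 4 higher and 3 lower in VC cells, and *Kit* and *Cd34* were among the lower (log2 fold changes of -3.15 and -4.63). Markers of other cell types moved as well, in a comparison where 21.5% of all genes tested were higher and 22.7% were lower. Summed granulocyte maturation markers ran from 147 to 454 CPM in WT and from 934 to 3520 CPM in VC libraries, and all 7 rose. Summed mast cell and basophil markers went from 12233 to 18705 CPM to 4560 to 5076 CPM, with 4 of 5 lower. Summed erythroid markers went from 1406 to 2129 CPM to 4466 to 5031 CPM, with 6 of 6 higher. The 6 macrophage markers summed to 12.7 to 23.4 CPM in WT and 29.6 to 34.2 CPM in VC libraries, and 1 of them passed the threshold, *Vcam1*, which was higher in VC. Summed B cell markers ran from 0.611 to 1.10 CPM in WT and from 8.50 to 24.6 CPM in VC libraries, with 4 of the 4 tested higher, and none of the 5 reached over 113 counts in a library. Where at least 10 counts were asked of every library, no B cell marker was left to test. The 5 T cell markers were too low to be tested, at no more than 24 counts in a library. The part of these cell types in the results on the 9 genes was not tested.

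DNA methylation in mammals is placed mainly on cytosines that precede a guanine (CpG). DNMT3A and DNMT3B methylate unmodified sites, and DNMT1, guided by UHRF1 to newly replicated DNA, copies the marks onto the daughter strand. TET1, TET2 and TET3 oxidise the methyl group, which opens the way to its removal, and they use 2-oxoglutarate, the product of the isocitrate dehydrogenases IDH1 in the cytosol and IDH2 in mitochondria. In human AML, *DNMT3A*, *TET2*, *IDH1* and *IDH2* are recurrently mutated, and the mutant IDH enzymes make 2-hydroxyglutarate, an inhibitor of TET enzymes.

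Among the 9 genes, *Idh1*, *Tet2* and *Dnmt3b* fell in VC cells, by between 1.78-fold and 2.24-fold. *Dnmt1*, *Uhrf1*, *Dnmt3a*, *Tet3* and *Idh2* did not pass the threshold, and *Tet1*, at 1 to 13 counts per library, was too low to be tested. The test was edgeR's quasi-likelihood test over 14169 genes with enough counts, at a Benjamini-Hochberg adjusted p of 0.05. Of the 8 tested, 3 were lower and 0 were higher, where 22.7% of all genes tested were lower, 21.5% were higher and 44.2% changed in either direction. Libraries of the groups did not overlap in 3 of the 8, against 57.3% of all genes tested. In either direction, the share of the 8 tested that was called was therefore not above the background of this comparison. For lower calls alone it was above the 22.7%, and neither difference was tested. The median log2 fold change of the 8 tested was 0.02 against 0.01 over all genes tested. The 9 genes lie on 9 different chromosomes. The same 3 genes were called at an adjusted p of 0.01, where 26.8% of all genes tested were called, and *Tet2* and *Idh1* were called at a minimum change of 2-fold, against 21.4%. *Dnmt3b*, *Tet2* and *Idh1* were lower in each of the 11 refits with other tools, filters, scalings or with 1 library left out.

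**Figure D1:**
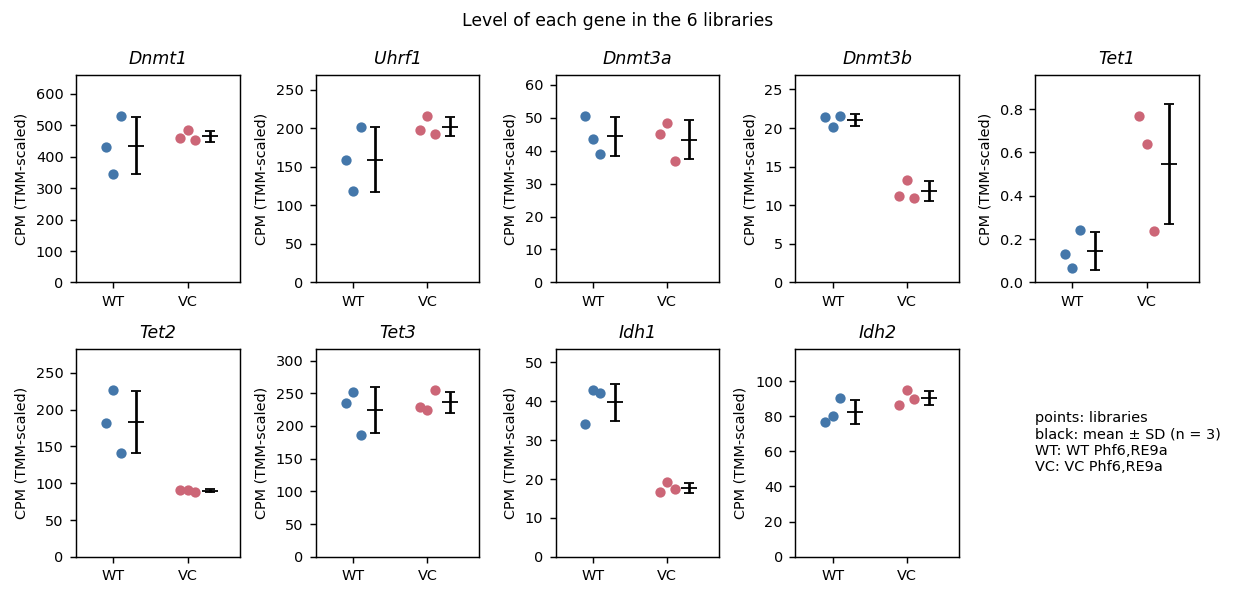
Level of each of the 9 genes in each library, in CPM on a linear axis from 0, with WT and VC libraries as separate points and the mean ± SD in black (n = 3). The VC points lie under all WT points for *Dnmt3b*, *Tet2* and *Idh1*, and the groups overlap for the other 6 genes.

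*Dnmt1* encodes the maintenance methyltransferase and lies at chr9:20907209-20959888 on the minus strand (ENSMUSG00000004099). Its counts were 6660, 5094 and 8748 in WT and 7779, 8306 and 7610 in VC libraries. The lowest and the highest library both belonged to WT, and the VC libraries lay between them. The level was 436 ± 92.0 CPM in WT and 465 ± 16.7 CPM in VC cells (SD, n = 3). The log2 fold change was 0.09 (SE 0.15, edgeR adjusted p = 0.646).

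*Uhrf1*, which encodes the ring finger protein that recruits DNMT1 to hemimethylated CpG, lies at chr17:56303321-56323486 on the plus strand (ENSMUSG00000001228). Its libraries held 2445, 1740 and 3322 counts in WT and 3336, 3699 and 3237 counts in VC cells. In CPM, WT replicate 3 at 201 stood inside the range of the VC libraries, 192 to 216, and the other two lay under it at 159 and 118. The mean level was 159 ± 41.5 CPM in WT and 202 ± 12.3 CPM in VC cells (SD, n = 3), a log2 fold change of 0.34 (SE 0.18, edgeR adjusted p = 0.158). Without WT replicate 3, *Uhrf1* passed the threshold as higher, at a log2 fold change of 0.53 (SE 0.14, edgeR adjusted p = 0.0213).

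Both genes of maintenance hold a motif of E2F factors, which drive genes of DNA replication, near an annotated start. Their sequences are shown because the other 7 genes held no such match in any RefSeq promoter window. The windows ran from 250 bases before to 50 bases after each start on GRCm38.p6, and TTTNGCGC was searched on both strands. The capitals mark 1 match in each, at chr9:20952835-20952842, where the strand shown reads it in reverse, and at chr17:56304128-56304135. The *Dnmt1* stretch, chr9:20952824-20952853 on the minus strand, lies inside an annotated exon of the gene, and the same *Dnmt1* window holds a second match, after the start and on the other strand, which is not shown. The *Uhrf1* stretch, chr17:56304063-56304312 on the plus strand, lies inside the gene but in no exon.
Dnmt1: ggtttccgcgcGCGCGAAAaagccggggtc
Uhrf1: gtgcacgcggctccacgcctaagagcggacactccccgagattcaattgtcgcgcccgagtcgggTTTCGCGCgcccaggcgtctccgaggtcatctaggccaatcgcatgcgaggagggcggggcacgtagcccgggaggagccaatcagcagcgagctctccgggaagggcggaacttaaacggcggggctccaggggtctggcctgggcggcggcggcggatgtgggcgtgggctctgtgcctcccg
The motif was found in 2 of the 15 windows of the 9 genes and in 452 of 32851 windows of all genes (1.38%). The other windows of *Dnmt1* and *Uhrf1* held none, including those at or nearest the starts of the deposited genes. RUNX1-ETO9a binds DNA through the runt domain, and the RUNX motif TGTGGT, searched the same way, was in 1 of the 15 windows, another of *Uhrf1*, and in 16.76% of all windows. A match of letters does not show that a factor is bound there.

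Because *Dnmt1* and *Uhrf1* are known to be used most in dividing cells, their levels were set beside 17 markers of cycling cells. Summed over the markers, the libraries read 3090, 2501 and 3872 CPM in WT and 4443, 4551 and 4241 CPM in VC cells, so that all VC libraries were higher. Within each group the libraries stood in the same order by the marker sum, by *Dnmt1* and by *Uhrf1*, with replicate 2 lowest and 3 highest in WT and replicate 13 lowest and 12 highest in VC cells. *Dnmt3b* followed that order too, but by small steps, at 21.4 and 21.5 CPM in WT replicates 1 and 3. In VC replicates 11 and 13 it had 11.2 and 10.9 CPM. Between groups it went the other way from the marker sum, being lower in all VC libraries. *Dnmt3a* and *Tet2* shared only the VC order, and *Tet1* only the WT order. Each order rests on 3 libraries a group that share their scaling, and the part of cycling cells in the levels of these genes was not tested. Of the 17 markers, 9 rose and 0 fell, where 21.5% of all genes tested were higher and 22.7% were lower. The median log2 fold change of the markers was 0.47. The largest called change was that of *Plk1*, a mitotic kinase (0.81, SE 0.20, edgeR adjusted p = 0.0132). *Mki67*, the most abundant per length, went from 85.6 ± 14.9 to 126 ± 8.62 FPKM (SD, n = 3; log2 fold change 0.57, edgeR adjusted p = 0.0147). The count rested on single libraries, since it was 16 without WT replicate 3, 5 without replicate 2 and 3 without replicate 1, and 3, 2 and 4 without VC replicates 11, 12 and 13.

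**Figure D2:**
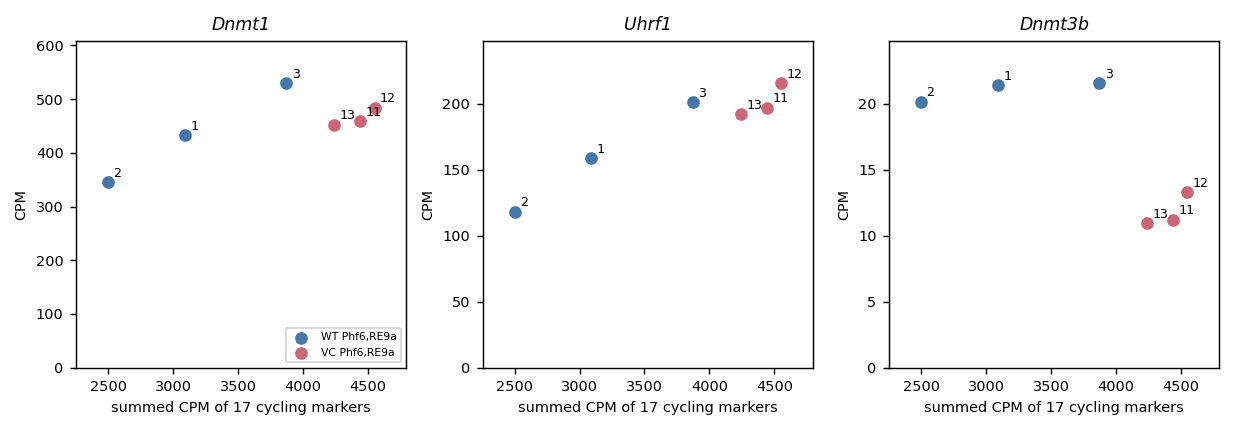
Level of *Dnmt1*, *Uhrf1* and *Dnmt3b* in each library, in CPM, against the summed CPM of 17 markers of cycling cells, with the libraries of the groups as separate points. Within each group the order of the libraries on the vertical axis is that on the horizontal axis, and WT replicate 2 has the lowest marker sum at 2501 CPM. All VC libraries lie above WT on the marker sum and below WT for *Dnmt3b*.

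*Dnmt3a*, a methyltransferase of unmodified CpG, lies at chr12:3806007-3914443 on the plus strand (ENSMUSG00000020661). Counts were 777, 640 and 644 in WT and 762, 828 and 618 in VC libraries, and the groups overlapped over most of their range. Its level was 44.3 ± 5.78 CPM in WT and 43.3 ± 5.94 CPM in VC cells (SD, n = 3; log2 fold change -0.03, SE 0.14, edgeR adjusted p = 0.876). An antisense gene, *Dnmt3aos*, shares exon positions with it, and since the strand setting of the counting is not given in the sources used here, their reads may be mixed. *Dnmt3aos* itself had at most 5 counts.

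*Dnmt3b*, the other de novo methyltransferase, lies at chr2:153649450-153687730 on the plus strand (ENSMUSG00000027478). It had 330, 297 and 356 counts in WT and 190, 228 and 184 counts in VC libraries. All VC libraries lay under all WT libraries. The level fell from 21.04 ± 0.773 to 11.8 ± 1.28 CPM (SD, n = 3), which is 1.78-fold lower, with a log2 fold change of -0.83 (SE 0.14, edgeR adjusted p = 0.00245). Its absolute log2 fold change was larger than that of 70.9% of the genes tested.

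The expression of *Tet1*, at chr10:62804570-62908996 on the minus strand (ENSMUSG00000047146), was near the floor. Its dioxygenase is best known from embryonic stem cells. The libraries held 2, 1 and 4 counts in WT and 13, 11 and 4 counts in VC cells, so that VC replicate 13 equalled the highest WT library and the other two stood above. A count of 3 came to at most 0.204 CPM. Pooled over libraries and scaled to their sizes, 28 counts against 7 gave a ratio of 3.66, with an exact 95% interval from 1.56 to 9.94 that covers counting error only. *Tet1* was removed by the filter on low counts. Without VC replicate 13 it was kept and called higher (log2 fold change 2.18, SE 0.62, edgeR adjusted p = 0.0335). In the 5 other refits that kept it, the adjusted p ran from 0.0599 to 0.171.

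*Tet2*, whose loss of function is frequent in human myeloid disease, lies at chr3:133463679-133545139 on the minus strand (ENSMUSG00000040943). Counts were 2808, 3335 and 2338 in WT and 1537, 1559 and 1473 in VC libraries. The groups did not overlap, and the VC libraries lay between 87.5 and 90.8 CPM while the WT libraries spread from 142 to 226 CPM. The level fell from 183 ± 42.4 to 89.7 ± 1.89 CPM (SD, n = 3), 2.04-fold lower, with a log2 fold change of -1.03 (SE 0.16, edgeR adjusted p = 0.00174). An antisense gene with overlapping exons, *Gm42567*, had at most 4 counts.

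*Tet3*, the third dioxygenase, lies at chr6:83362373-83459084 on the minus strand (ENSMUSG00000034832). With 3624, 3722 and 3071 counts in WT and 3892, 3855 and 4282 counts in VC libraries, the groups overlapped in CPM. Means were 225 ± 34.6 and 236 ± 15.9 CPM (SD, n = 3; log2 fold change 0.07, SE 0.13, edgeR adjusted p = 0.666).

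*Idh1*, the cytosolic enzyme, lies at chr1:65158616-65186500 on the minus strand (ENSMUSG00000025950). It had 526, 631 and 698 counts in WT and 281, 329 and 295 counts in VC libraries, with all of the latter lower. The level fell from 39.7 ± 4.85 to 17.8 ± 1.31 CPM (SD, n = 3), 2.24-fold lower, and the log2 fold change of -1.16 (SE 0.13, edgeR adjusted p = 0.000401) was the largest in size of the 8 genes tested.

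*Idh2*, the mitochondrial enzyme, lies at chr7:80094846-80115392 on the minus strand (ENSMUSG00000030541). Its counts were 1181, 1183 and 1490 in WT and 1466, 1625 and 1513 in VC libraries. In CPM, WT replicate 3 at 90.2 lay among the VC libraries, which ran from 86.6 to 94.7. The level was 82.4 ± 6.997 CPM in WT and 90.4 ± 4.08 CPM in VC cells (SD, n = 3; log2 fold change 0.13, SE 0.09, edgeR adjusted p = 0.267).

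**Figure D3:**
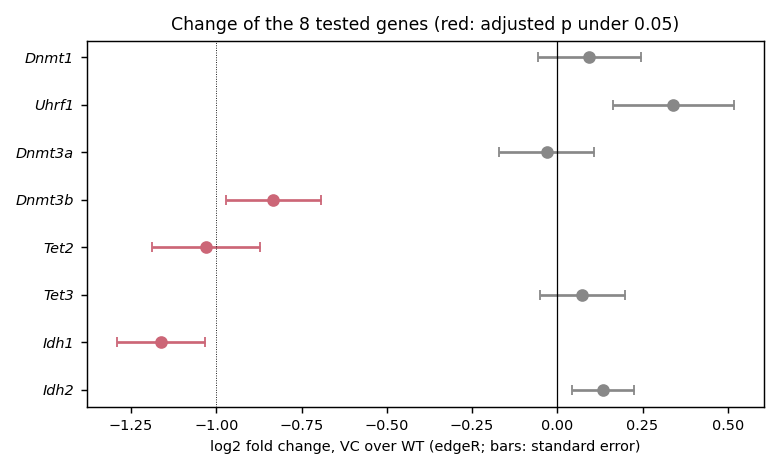
Log2 fold change of VC over WT cells from edgeR for the 8 genes tested, with bars of 1 standard error and red points for adjusted p under 0.05. *Dnmt3b* at -0.83, *Tet2* at -1.03 and *Idh1* at -1.16 lie well under 0, and the other 5 lie between -0.03 and 0.34.

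Stretches before a RefSeq start of each of the 3 genes that fell are shown with each CpG, the site these enzymes act on, in capitals. They are RefSeq promoter sequence of GRCm38.p6, each on the strand of its gene and cut where an annotated exon begins. *Dnmt3b* is chr2:153649199-153649448 on the plus strand, *Tet2* is chr3:133544391-133544640 on the minus strand and *Idh1* is chr1:65186501-65186682 on the minus strand. The *Tet2* stretch lies inside the deposited gene but in no exon, before a RefSeq start at chr3:133544390. Those of *Dnmt3b* and *Idh1* lie outside their genes.
Dnmt3b: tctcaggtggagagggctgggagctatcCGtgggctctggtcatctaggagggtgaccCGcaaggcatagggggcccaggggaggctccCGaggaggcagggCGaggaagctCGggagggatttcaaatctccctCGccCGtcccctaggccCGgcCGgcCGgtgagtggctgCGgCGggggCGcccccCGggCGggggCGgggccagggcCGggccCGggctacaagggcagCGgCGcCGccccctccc
Tet2: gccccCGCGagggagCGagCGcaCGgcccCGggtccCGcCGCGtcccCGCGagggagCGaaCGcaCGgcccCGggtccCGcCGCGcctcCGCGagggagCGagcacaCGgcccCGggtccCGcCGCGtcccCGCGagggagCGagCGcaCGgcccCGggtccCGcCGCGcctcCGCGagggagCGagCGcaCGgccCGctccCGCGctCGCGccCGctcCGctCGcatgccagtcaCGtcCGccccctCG
Idh1: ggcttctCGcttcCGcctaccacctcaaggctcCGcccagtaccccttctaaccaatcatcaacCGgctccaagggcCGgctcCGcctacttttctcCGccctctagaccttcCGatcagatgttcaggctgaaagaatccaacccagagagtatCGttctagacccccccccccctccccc
These stretches, of 250, 250 and 182 bases, hold 21, 51 and 9 CpG. The *Tet2* stretch repeats itself imperfectly, since 162 of 208 bases (77.9%) match the base 42 positions further on. Over the whole 300-base windows, the 15 windows of the 9 genes had a median of 23 CpG against 7 over all 32851 windows, and *Tet2*, with 57, had more than 99.8% of them. By whole windows, *Dnmt3b* had 30 CpG and *Idh1* had 23 in each of its windows. The 3 genes that fell thus did not share a CpG count. *Dnmt3a*, which did not pass the threshold, had 46 and 47 CpG in a pair of overlapping windows and 18 in its other window.

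Levels between genes were compared per length, as deposited FPKM values. In WT cells, *Dnmt1* was highest at 58.7 ± 12.3 FPKM (SD, n = 3), followed by *Uhrf1* at 37.2, *Idh2* at 31.6, *Idh1* at 14.2, *Tet3* at 13.4, *Tet2* at 10.8, *Dnmt3b* at 4.09, *Dnmt3a* at 2.65 and *Tet1* at 0.00942. In that order, the library ranges of *Dnmt1* and *Uhrf1*, *Uhrf1* and *Idh2*, *Idh1* and *Tet3*, and *Tet3* and *Tet2* overlapped, so these neighbours were not separated. In VC cells the order was *Dnmt1* at 62.2 ± 2.58 FPKM, *Uhrf1* at 46.7, *Idh2* at 34.5, *Tet3* at 14.0, *Idh1* at 6.33, *Tet2* at 5.25, *Dnmt3a* at 2.57, *Dnmt3b* at 2.28 and *Tet1* at 0.0351. The 2 de novo enzymes were the only neighbours whose ranges overlapped there. The order of *Dnmt3a* and *Dnmt3b*, and that of *Tet3* and *Idh1*, thus differed between the groups by their means. The place of a gene in these orders depends on its deposited length. In counts, *Dnmt3a* was above *Dnmt3b*, and *Tet3* above *Idh1*, in every library.

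Within each enzyme family, shares of the summed FPKM differed between groups while the family's sum overlapped. The shares of a family add up to the whole, so where the share of a gene is lower, that of the rest is higher. By their own levels, *Tet3*, *Idh2* and *Dnmt1* did not pass the threshold. *Tet2* made up 44.4 ± 2.22% of the TET sum in WT and 27.3 ± 1.69% in VC cells (SD, n = 3), and *Tet3* went from 55.5 ± 2.20% to 72.5 ± 1.78%, with no overlap for either. *Idh1* went from 31.0 ± 2.003% to 15.5 ± 0.368% of the sum of *Idh1* and *Idh2*, again with no overlap. Of the DNMT sum, *Dnmt1* held 89.5 ± 1.99% and 92.8 ± 0.561%, and *Dnmt3b* held 6.38 ± 1.00% and 3.40 ± 0.227%, both without overlap, while *Dnmt3a* overlapped at 4.16% and 3.82%. The DNMT sum was 65.4 ± 12.3 FPKM in WT and 67.1 ± 3.16 FPKM in VC cells. The TET sum was 24.2 ± 4.54 and 19.3 ± 0.713 FPKM, and that of *Idh1* and *Idh2* was 45.9 ± 3.81 and 40.8 ± 2.18 FPKM, with overlapping libraries in each case.

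**Figure D4:**
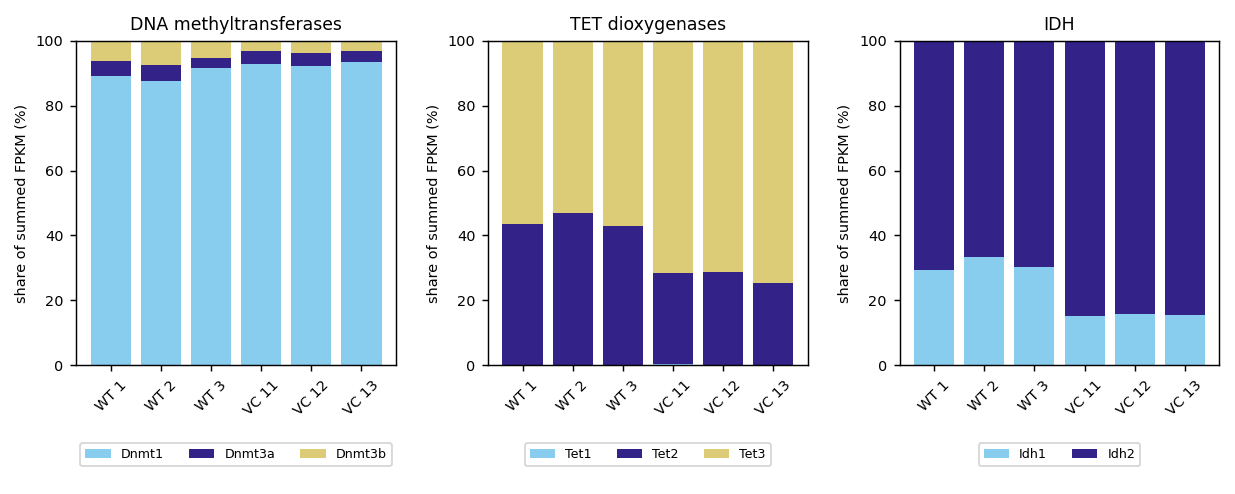
Share of each gene in the summed FPKM of its enzyme family (DNMT, TET and IDH), in percent, as stacked bars for each of the 6 libraries. The *Tet2* share is lower in all 3 VC libraries (mean 27.3%) than in all 3 WT libraries (mean 44.4%), and the *Idh1* share likewise (15.5% against 31.0%).

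A ratio of 2 genes within a library does not depend on how libraries are scaled. The ratio of *Idh2* to *Idh1* was 2.40, 2.01 and 2.29 in WT and 5.59, 5.29 and 5.49 in VC libraries, a difference of 1.29 on the log2 scale. That of *Tet2* to *Tet3* was 0.767, 0.887 and 0.753 against 0.391, 0.400 and 0.340 (log2 difference -1.09). For *Dnmt3a* to *Dnmt3b* it was 0.722, 0.661 and 0.555 against 1.23, 1.11 and 1.03 (log2 difference 0.80). Per length, *Dnmt3b* was thus the higher of the pair in all WT libraries and the lower in all VC libraries. Which of the pair is higher depends on the deposited lengths, 16642 bases for *Dnmt3a* and 5106 for *Dnmt3b*. In counts, *Dnmt3a* was the higher in every library. The log2 difference between the groups does not depend on the lengths. The ratio of *Dnmt1* to *Uhrf1* was 1.57, 1.69 and 1.52 against 1.35, 1.30 and 1.36 (log2 difference -0.26), with no overlap although neither gene passed the threshold by itself. The ratio of *Tet2* to *Tet1* also did not overlap (log2 difference -2.93), but it rests on as few as 1 count of *Tet1*. In each of the 5 ratios the exact 2-sided permutation p was 0.1, the smallest that 3 against 3 libraries can give, and it was also 0.1 after Benjamini-Hochberg adjustment over the 5.

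The genes most like the 3 that fell were those with the smallest root mean square difference of centred log2 CPM over the 6 libraries. For *Idh1* these were *Elovl5* (0.0599) and *Ppt2* (0.0719), an elongase of fatty acids and a lysosomal thioesterase. For *Tet2* these were *Got1* (0.0323), a cytosolic transaminase that makes and uses 2-oxoglutarate, and *Mlxip* (0.0567), a glucose-responsive transcription factor. For *Dnmt3b* these were *Stn1* (0.0399), of the CST complex at telomeres, and *Wapl* (0.0458), which releases cohesin. They are the nearest of 14169 genes and are given as a description.

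Other genes of the pathway were counted by list in the same test. Over all genes tested, 21.5% were higher, 22.7% were lower and 44.2% changed in either direction, and no list was tested against these shares. Of 9 partners of the methyltransferases, 8 were tested, 1 was higher and 0 were lower, with a median log2 fold change of 0.12. The higher one was *Uhrf2*, a paralog of *Uhrf1*, at 103 ± 7.33 against 122 ± 1.60 CPM (SD, n = 3; log2 fold change 0.24, SE 0.08, edgeR adjusted p = 0.0471). Its call was lost when VC replicate 11, 12 or 13 or WT replicate 2 was left out, and also in DESeq2, limma, under RLE scaling and without the filter, and 2 partners passed without WT replicate 3. *Pcna*, the replication clamp and the most abundant partner, had 155 ± 22.1 and 145 ± 13.9 FPKM (log2 fold change -0.08, edgeR adjusted p = 0.634).

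Among 16 genes that excise oxidised cytosine or work with TET enzymes, 13 were tested, 4 were higher and 2 were lower. The 6 called of 13 are near the 44.2% of all genes tested. *Smug1*, a uracil DNA glycosylase that also takes hydroxymethyluracil, had 160, 190 and 211 counts in WT and 438, 551 and 553 counts in VC libraries (log2 fold change 1.33, SE 0.15, edgeR adjusted p = 0.00046). *Parp1* (log2 fold change 1.02), *Wt1* (0.84), a zinc finger factor that binds TET2, and *Mbd4* (0.81), a thymine glycosylase, were the other higher genes. *Tdg*, the glycosylase that removes the oxidised forms made by TET enzymes, was lower (-0.39, edgeR adjusted p = 0.00695), and so was *Apex1* (-0.75), the endonuclease of the next step. The count of lower genes was 1 without any 1 library other than WT replicate 2. *Ogt*, a sugar transferase bound by TET proteins and the most abundant of the list, had 58.3 ± 10.4 and 63.0 ± 7.48 FPKM (log2 fold change 0.12, edgeR adjusted p = 0.539).

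Proteins that read methylated CpG, or belong to the family that does, were counted over 7 genes, all tested. Of these, 5 were lower and 0 were higher, with a median log2 fold change of -0.30, where 22.7% of all genes tested were lower. *Zbtb4*, a zinc finger reader, had 966, 1229 and 825 counts in WT and 304, 422 and 442 counts in VC libraries (log2 fold change -1.51, SE 0.22, edgeR adjusted p = 0.00121). *Zbtb38* and *Mbd1* were lower as well (both -1.04), as were *Mbd2* (-0.30), the most abundant reader at 55.5 ± 4.35 and 44.9 ± 2.35 FPKM, and *Zbtb33* (-0.29). *Mbd3* (0.27), of the same domain family as *Mbd2* but with little preference for methylated CpG, did not pass the threshold. The count of lower readers was 3 without any 1 of the VC libraries or WT replicate 1.

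Of 20 genes that make or use 2-oxoglutarate and 2-hydroxyglutarate or carry the reactions around them, 19 were tested, 5 were higher and 4 were lower. The 9 called of 19 are near the 44.2% of all genes tested. *Glud1*, which makes 2-oxoglutarate from glutamate, had 5990, 5967 and 6089 counts in WT and 2079, 2138 and 2306 counts in VC libraries, the largest called change of the list (log2 fold change -1.60, SE 0.09, edgeR adjusted p = 2.84e-05). *Got1* (-1.05), *Slc25a1* (-0.63), the mitochondrial citrate carrier, and *Fh1* (-0.46), a fumarase, were the other lower genes. *Aco1* (1.08), the cytosolic aconitase, which makes isocitrate, was among the higher genes, as were *Sdhb* (0.67) and *Sdhd* (0.39), subunits of succinate dehydrogenase, and *Idh3b* (0.37), of the NAD-dependent isocitrate dehydrogenase. *Sdhd*, the most abundant of the list, had 84.1 ± 15.4 and 110 ± 3.33 FPKM. Without any 1 VC library, 3 of these genes were higher.

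The S-adenosylmethionine cycle supplies the methyl group, and its 14 genes, all tested, had 4 higher and 4 lower members with a median log2 fold change of 0.01, the value of all genes tested. *Mat2a*, the synthetase of S-adenosylmethionine and the most abundant of the list, rose from 104 ± 5.09 to 146 ± 11.1 FPKM (log2 fold change 0.51, SE 0.10, edgeR adjusted p = 0.00474). *Adk*, which clears the adenosine left by the cycle, fell from 28.9 ± 2.56 to 17.9 ± 1.45 FPKM (log2 fold change -0.68, SE 0.10, edgeR adjusted p = 0.00148). The count of higher genes was 2 without VC replicate 11, without replicate 12, or without WT replicate 1.

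**Figure D5:**
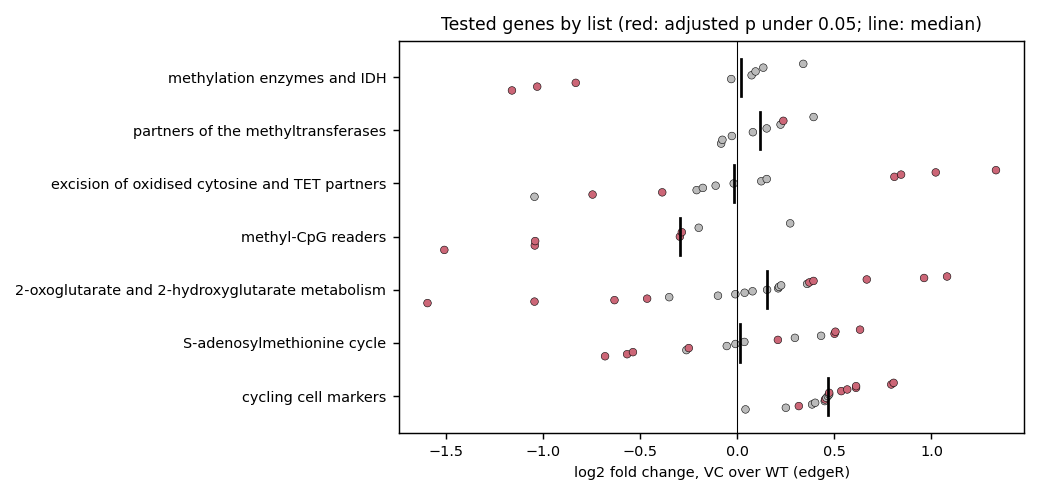
Log2 fold change of VC over WT cells from edgeR for each tested gene of the 9, of the pathway lists and of the cycling markers, with 1 row of points per list, red points for genes past the adjusted p of 0.05 and a line at the median. The called methyl-CpG readers all lie under 0 (5 of 7), and called genes lie on both sides of 0 in the lists of excision, 2-oxoglutarate metabolism and the S-adenosylmethionine cycle.

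By the rule for named genes, the marker lists gave the following values. *Camp* (log2 fold change 3.39) and *S100a9* (3.20) of granulocytes rose, *Fcer1a* (-6.83) and *Cpa3* (-4.62) of mast cells fell, and *Hba-a1* (2.36) and *Hbb-bs* (0.92) of erythroid cells rose. *Vcam1* of macrophages rose (1.53), and *C1qa* had 24 to 57 counts in WT and 64 to 82 counts in VC libraries (0.62, edgeR adjusted p = 0.212). Of the lymphoid markers, *Cd79b* of B cells had at most 6 counts in any WT library, and *Cd8a* of T cells had at most 24 in any library. Their level beside the 9 genes is given because sorted GFP+ cells can hold other blood cells, and their part in the results was not tested.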

How the data were processed

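RNA was sequenced from AML cells of mice, with 3 libraries of *WT Phf6,RE9a* (WT) and 3 of *VC Phf6,RE9a* (VC). The authors deposited read counts per Ensembl gene, not normalized, and FPKM values, which divide those counts by the deposited gene length and 1 scaled library size per library. The deposited comparison (mean normalized signal, log2 fold changes and p-values of the authors, made with DESeq2) was not used. Per the submitters' processing notes, Bowtie 0.12.0 and mm8 were used, but the coordinates in the table of all 9 genes are those of GRCm38 in GENCODE M21 and are given as deposited. The counting tool and its strand setting are not given in the sources used here.

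In R 4.3.3, the filterByExpr filter of edgeR 4.0.16 kept 14169 genes, whose counts were given TMM factors and tested by quasi-likelihood, with Benjamini-Hochberg adjustment and a threshold of 0.05. Standard errors come from the same fit. CPM used TMM-scaled library sizes. Ratios of FPKM were compared with an exact 2-sided permutation test (scipy 1.17.1). Limits and intervals from counts describe counting error and nothing else, as PCR copies were not told apart by molecular identifiers. The fit was tested on simulated data. Pairs of libraries within a group had a chi-square per gene of 11.8 to 46.4, above sampling noise, and each library was used as a replicate. The alternatives were DESeq2 1.42.0, RLE scaling, all genes without a filter, only genes with 10 or more counts per library, limma 3.58.1 on log2(FPKM + 1), stricter thresholds and each library left out. Promoter sequence came from RefSeq (GRCm38.p6), and all 9 genes matched. The rule for named genes took every one of the 9, the largest called change and the most abundant gene of each other list, the 2 nearest genes to each of the 3 smallest p-values, and *Phf6*, and further called genes of the lists were named after their values were seen. The values of some single genes that the lists count are not reported here. The 9 genes and the lists were chosen with earlier results of these data known. Python 3.11.15 and matplotlib 3.10.9 made the figures.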

Additional observations from a re-analysis of the deposited data

How the results depend on the processing

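*Idh1*, *Tet2* and *Dnmt3b* stayed lower and past the threshold in DESeq2, limma, RLE scaling, both other filters and each refit without 1 library. Over these, *Idh1* took log2 fold changes from -1.27 to -1.05, *Tet2* from -1.20 to -0.86 and *Dnmt3b* from -0.92 to -0.64. At a minimum change of 2-fold, 2 of the 9 genes were lower, without *Dnmt3b*. The number of higher genes among the 9 ran from 0 to 1 when libraries were left out, being 1 without WT replicate 3 (*Uhrf1*) and 1 without VC replicate 13 (*Tet1*), and the number of lower genes was 3 throughout. The log2 fold changes of 3 genes that did not pass the threshold changed sign, and the cause was not tested. *Dnmt1* ran from -0.058 to 0.25, negative without WT replicate 2, *Dnmt3a* from -0.12 to 0.073, positive without VC replicate 13 (0.073) or WT replicate 1 (0.067), and *Tet3* from -0.054 to 0.16, negative without WT replicate 3. *Uhrf1* ran from 0.15 to 0.53. Over all genes, 3047 were higher and 3213 lower, with 1690 and 2110 at an adjusted p of 0.01, with 1410 and 1625 at 2-fold, and with 2179 to 3132 and 2511 to 3338 when 1 library was left out. *Tet1* could not be fitted under RLE scaling, limma, the filter of 10 counts or without VC replicate 11 or 12, since too few counts were left. No paired analysis was possible because the groups share no replicate number. Depth limits *Tet1* alone among the 9, and the exact permutation test of the ratios cannot go under 0.1 with 3 libraries a group.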
